A study of Mus musculus with 3 samples.

Results

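The cells described here are the 300 spinal cord microglia of library 2 with the highest relative count of DNA replication transcripts. They are 300 of the 3569 cells of that library with at least 2000 unique molecular identifiers (UMIs, each marking 1 captured mRNA molecule), and 300 of 7522 cells in the series. They were chosen on a score per cell. The score added the UMIs of 10 genes that act before or during S phase (Mcm3, Mcm5, Mcm6, Ccne1, Ccne2, Cdc6, Dtl, Gins2, Uhrf1 and Slbp), subtracted those of 6 genes of mitosis (Ube2c, Cenpa, Ccnb1, Ccnb2, Cdc20 and Plk1), and divided the result by the cell's total UMIs. The values of these 16 genes therefore describe the choice and are no result.

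The study asked how microglia, the resident macrophages of the central nervous system, divide in the lumbar spinal cord after sciatic nerve injury. YFP (+) cells were sorted by fluorescence from the lumbar cords of C57BL/6 mice that were young adults and heterozygous for Cx3cr1-creER-yfp (Cx3cr1-creER-yfp/+), in which 1 copy of the microglial chemokine receptor gene Cx3cr1 carries the creER-yfp insertion in all groups. The groups were naive animals and animals 24 h or 48 h after the sciatic nerve was cut, with the cords of 3 animals pooled in each group, so that each group is 1 library. The cell barcodes carry the suffixes 1, 2 and 3, and the labels do not tie a suffix to a group. Libraries are therefore called by their suffix, and no time after injury is given to library 2. The Cx3cr1 promoter that drives YFP is also active in monocytes. The sort selected cells by size and excluded doublets, and sorted cells were kept in a serum-free medium with TGF-β2, IL34 and cholesterol before capture.

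With 1 library there are no replicates, so no test was made and intervals on UMIs cover counting error only. UMIs were summed over a set of cells and expressed per 1000000 UMIs of that set (CPM), with exact Poisson 95% intervals. A ratio of 2 CPM values has an exact conditional binomial interval. Cells of 1 library are not replicates of a condition, and an interval on a share of cells treats them as independent draws from that library.

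DNA replication is prepared in G1, when the origin recognition complex, Cdc6 and Cdt1 load the Mcm helicase onto origins. Cyclin E with Cdk2, and Cdc7 with Dbf4, then start the helicase, and Pcna, the polymerases and DNA ligase copy the strands behind it. The E2F factors drive many of these genes at the entry to S phase, whereas the genes of mitosis are held back until later by complexes that read a CHR element, often beside a CCAAT box. Adult microglia seldom divide in the resting cord and divide locally after a peripheral nerve is injured.

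The promoters of rule genes show these words, and are given because the rule sets genes of the first kind against genes of the second. Of the 10 genes added in the score, 8 were matched by symbol to RefSeq promoters (build GRCm38.p6, 250 bases before to 50 bases after a start). Ccne2 and Gins2 were not matched. All 6 subtracted genes were matched. The 200 bases before the start are printed 5′ to 3′ on the gene's own strand for Mcm5 and Mcm6 (helicase subunits), Dtl (which directs Cdt1 to degradation at replicating DNA), Uhrf1 (which carries DNA methylation to the new strand) and, from outside the rule, the chromatin remodeler Hells. They were picked because they hold an E2F word. The first listed start of Uhrf1 holds none, nor do the promoters of Pcna, Rad54l, Tcf19 and Mcm2, genes described below. The windows are chr8:75109309-75109508 (plus strand) for Mcm5, chr1:128359706-128359905 (minus) for Mcm6, chr1:191575545-191575744 (minus) for Dtl, chr17:56304113-56304312 (plus, the second of 2 listed starts) for Uhrf1 and chr19:38930790-38930989 (plus) for Hells. Capitals mark the E2F words TTTCCCGC, TTTGGCGC, TTTGCCGC and TTTCGCGC, read on both strands.
Mcm5: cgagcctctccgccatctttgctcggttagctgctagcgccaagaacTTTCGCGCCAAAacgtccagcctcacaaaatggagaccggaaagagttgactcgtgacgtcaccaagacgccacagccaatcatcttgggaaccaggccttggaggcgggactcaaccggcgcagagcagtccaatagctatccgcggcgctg
Mcm6: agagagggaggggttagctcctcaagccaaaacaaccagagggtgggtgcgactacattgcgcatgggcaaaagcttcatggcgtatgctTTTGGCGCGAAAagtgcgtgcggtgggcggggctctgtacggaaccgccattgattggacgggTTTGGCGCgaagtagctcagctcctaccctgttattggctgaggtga
Dtl: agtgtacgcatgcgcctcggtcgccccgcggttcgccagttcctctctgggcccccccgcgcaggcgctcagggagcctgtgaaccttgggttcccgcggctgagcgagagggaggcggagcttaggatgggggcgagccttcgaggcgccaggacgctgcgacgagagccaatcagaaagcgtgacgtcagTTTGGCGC
Uhrf1: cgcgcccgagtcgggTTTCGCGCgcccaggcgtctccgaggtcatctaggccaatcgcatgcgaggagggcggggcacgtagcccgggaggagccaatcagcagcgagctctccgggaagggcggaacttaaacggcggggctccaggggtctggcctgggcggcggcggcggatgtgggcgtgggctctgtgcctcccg
Hells: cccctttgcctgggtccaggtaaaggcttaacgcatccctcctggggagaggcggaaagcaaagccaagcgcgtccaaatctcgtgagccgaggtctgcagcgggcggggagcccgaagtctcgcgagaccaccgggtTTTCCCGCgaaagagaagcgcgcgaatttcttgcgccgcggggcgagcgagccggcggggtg

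The Mcm5 window holds a pair of overlapping words on opposite strands, starting 153 and 149 bases before the start. Mcm6 has a like overlapping pair at 110 and 106 bases and a further word at 47 bases. The word of Dtl ends directly before the start. For the subtracted genes Ube2c and Cdc20, which serve the anaphase-promoting complex, the capitals mark the CHR word TTTGAA, read on both strands. Their windows are chr2:164769729-164769928 (plus) and chr4:118437344-118437543 (minus). The CHR word starts 29 bases before the start in Ube2c and 18 bases before it in Cdc20.
Ube2c: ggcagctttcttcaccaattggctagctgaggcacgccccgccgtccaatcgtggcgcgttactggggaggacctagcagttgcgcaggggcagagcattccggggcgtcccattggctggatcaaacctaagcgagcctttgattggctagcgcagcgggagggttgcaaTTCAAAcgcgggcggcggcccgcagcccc
Cdc20: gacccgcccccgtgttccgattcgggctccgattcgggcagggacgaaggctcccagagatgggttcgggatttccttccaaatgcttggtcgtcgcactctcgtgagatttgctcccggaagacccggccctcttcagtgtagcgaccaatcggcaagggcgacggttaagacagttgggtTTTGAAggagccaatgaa

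An E2F word was present in 6 of the 8 matched genes added in the score (75%) and in 0 of the 6 subtracted ones. The CHR word was present in 0 of 8 and 5 of 6 (83.3%). Over all 27025 genes of the table, 2.60% had an E2F word and 20.2% the CHR word, and of its 32851 promoters 2.26% and 17.9% held them. Among genes outside the rule, an E2F word was found in 7 of 23 matched replication fork genes (30.4%), 5 of 12 origin licensing genes (41.7%), 6 of 12 chromatin assembly genes (50%) and 0 of 18 nucleotide synthesis genes. Of the 6214 matched genes at 10 CPM or more, 5.12% had an E2F word and 14.1% the CHR word. The CHR word was found in 32 of 44 matched mitosis genes (72.7%). It was in 2 of 23 fork genes (8.70%), 2 of 18 nucleotide synthesis genes (11.1%) and 1 of 15 repair genes (6.67%). It was also in 5 of 12 origin licensing genes (41.7%), 4 of 12 chromatin assembly genes (33.3%) and 7 of 22 G1 to S genes (31.8%). An E2F word was found in 5 of the 44 mitosis genes (11.4%). The 2 words thus did not part these lists cleanly. Of the 32 mitosis genes with a CHR word, 26 also had a CCAAT word somewhere in the same window, and the spacing of the words was not measured. Among the 6214 genes at 10 CPM or more, 42.9% had a CCAAT word and 5.73% had both words. A CCAAT word was also in 6 of the 8 matched added genes (75%) and in all 6 subtracted ones. These are matches of letters and say nothing of binding.

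The 300 cells held 2360 to 23287 UMIs each, with a median of 7738, and 2358613 UMIs in all. The other 3269 cells had a median of 5856. The median share of mitochondrial UMIs was 1.58% in the 300 cells and 1.52% in the others. Cells with more UMIs than 98% of library 2 made up 1.67% of the 300 and 2.05% of the others. The 300 cells carried 3 to 28 UMIs of the added genes, with a median of 12, against a median of 3 in the others. Of the subtracted genes they carried 0 to 8 UMIs with a median of 1, and 99 of the 300 (33.0%) carried none. A median of 6 of the 10 added genes was seen in each of the 300 cells.

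The score is continuous, and the 300 cells are its upper range, not a separate class. It ran from 9.94 to 29.8 per 10000 UMIs in the 300 cells, with a median of 12.2, and had a median of 2.48 in the others. The last cell inside had 7 added and 1 subtracted UMIs in 6034, and the first outside had 10 and 1 in 9056. Within 1 per 10000 of this limit lay 69 cells inside and 90 outside. With 1 added UMI fewer, 98 of the 300 would fall below it, and with 1 more, 172 of the others would reach it.

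**Figure D1:**
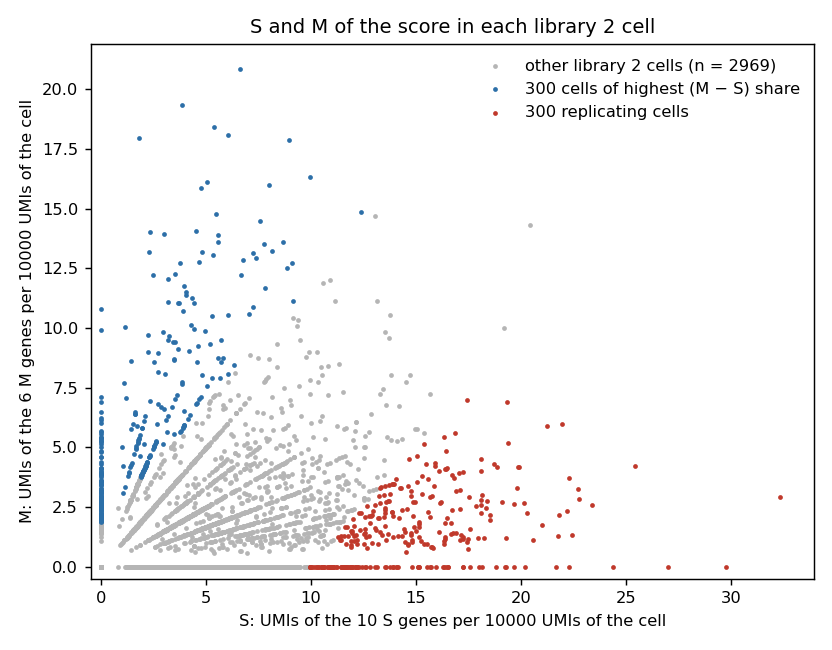
UMIs of the 10 added genes (horizontal axis) against UMIs of the 6 subtracted genes (vertical axis), both per 10000 UMIs, for each library 2 cell with at least 2000 UMIs. Red points are the 300 cells, blue points the 300 cells at the other end of the score and grey points the remaining 2969 cells. The red points begin at a score of 9.94 and no gap parts them from the grey ones.

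In the label of replicating microglia, the word microglia was checked on genes the rule did not use. The word replicating comes from the rule itself, and replication genes outside the rule are described further below. All 20 microglia identity genes passed the level of 10 CPM, and none was 1.5-fold higher or lower in the 300 cells. Their sum was 37865 CPM in the 300 cells and 39140 CPM in the others, a ratio of 0.97 (0.961 to 0.974). The purinergic receptor P2ry12 was at 2038 CPM in the 300 cells and 2292 in the others (ratio 0.889), with at least 3 UMIs in every one of the 300 cells, and the receptor Gpr34 at 649 against 801 (0.809), the lowest ratio of the list. Tmem119 was at 3319 against 3427 CPM. Markers of other cells were low. The 7 monocyte genes summed to 2.12 CPM in the 300 cells and 3.41 in the others, from 5 UMIs (Ccr2 had 2) and with 4 of the 7 at 0. The sums were 1.70 and 2.35 CPM for 7 genes of perivascular macrophages, with 4 at 0, and 3.39 and 3.64 CPM for 5 neutrophil genes, with 3 at 0. The 5 measured genes of T and NK cells summed to 8.06 CPM in the 300 cells and 15.0 in the others, Gzma first. Of the 326 UMIs of these genes in the others, 122 came from 1 cell at rank 308 of the score, and without it the others were at 9.41 CPM, a ratio of 0.856 (0.505 to 1.37). Oligodendrocyte genes, with Cnp first and none of 6 at 0, summed to 134 and 150 CPM, and astrocyte genes, with Slc1a3 first and 2 of 6 at 0, to 86.9 and 103 CPM.

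The 5 genes that name the cells were all used by the rule, so their values describe it. Ccne2, a cyclin E that binds Cdk2 before S phase (chr4:11191351-11204779, plus strand, GRCm38), was at 198 CPM (181 to 217) in the 300 cells, 30.3 in the others, 2.98 in library 1 and 3.64 in library 3. It was seen in 65.3% of the 300 cells, with 0 to 8 UMIs per cell. Dtl (chr1:191537356-191575544, minus) was at 173 CPM (156 to 190) and 44.4, and was seen in 71.0% of the 300 cells. Mcm6 was at 117 CPM (104 to 132) and 43.6, Mcm5 at 97.1 (84.9 to 111) and 38.2, and Uhrf1 at 70.8 (60.5 to 82.4) and 20.9. Of these 5 genes, 3 or more were seen in 191 of the 300 cells (63.7%), against 304 of the 3269 others (9.30%), and 15 of the 300 carried none of them.

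A score built without a gene chooses cells that the gene's own UMIs did not select. The 300 cells so chosen shared 252 cells with the full score for Ccne2 and 212 for Slbp, the histone mRNA binding protein. In them Ccne2 was at 146 CPM against 36.6 in the remaining cells, a ratio of 3.99 (3.5 to 4.54). The left-out ratio was 2.44 for Dtl, 2.32 for Uhrf1, 1.93 for Mcm6 and 1.84 for Mcm5. It was lowest for Slbp, at 1.56 (1.44 to 1.68), and was at least 1.5 for all 10 added genes. For the subtracted genes it ran from 0.836 for Cenpa, the centromere histone, to 1.2 for cyclin B1 (Ccnb1). The level of the subtracted genes in the full choice, 169 CPM against 239 CPM, was thus set in part by the subtraction itself.

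Outside the rule, 7983 genes had at least 10 CPM over all 3569 cells, and their median ratio was 1.01. Of these, 329 (4.12%) were at least 1.5-fold higher in the 300 cells and 107 (1.34%) at least 1.5-fold lower. Of the 329 genes, 111 belonged to 9 lists of cell cycle genes and 216 to no list used here. Of the 107 lower genes, 2 belonged to a list. The 300 cells were chosen on genes of the same program in the same cells, so these counts are a description. Under the other settings tried, they ran from 45 to 1889 genes higher and from 1 to 823 genes lower.

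The setting that lowered most of the ratios below was another choice of cells. Among the 1312 cells without any UMI of a subtracted gene, the 300 with the highest share of added genes were taken and compared with all other library 2 cells. This choice shares 99 cells with the 300 and reaches down to a score of 6.79 per 10000. Its members had a median of 5715.5 UMIs and of 5 added-gene UMIs, beside 7738 and 12 in the 300 cells. The part of this lower depth was not tested. In this choice the 10 added genes summed to a ratio of 1.80, beside 3.02 in the 300 cells, and 45 genes were at least 1.5-fold higher. It is called the M-free choice below. Cells with a UMI of a subtracted gene are left out of its members but stay in its comparison set, 201 of the 300 cells among them. How far this construction lowers its ratios was not tested. Within the 300, those 201 cells had mitosis genes at 3499 CPM against 2487 in the remaining 99, and fork genes at 2197 against 1768. With both the 300 cells and the others limited to cells without such a UMI, a setting added after seeing the data, the summed ratios were 1.96 for origin licensing, 1.91 (1.79 to 2.03) for fork genes, 1.51 for nucleotide synthesis, 1.69 for chromatin assembly and 1.68 (1.59 to 1.77) for mitosis genes.

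Genes that license and fire origins were higher as a group. Of 14 genes of this list that passed, 12 were at least 1.5-fold higher, with a median ratio of 1.97 against the 1.01 of all genes. Their summed level was 725 CPM in the 300 cells, 371 in the other library 2 cells, 130 in library 1 and 218 in library 3. Mcm2, a helicase subunit that the score did not use, was at 58.5 CPM against 29.9, a ratio of 1.96 (1.62 to 2.35). The initiation kinase Cdc7 was at 28.8 against 12.3 CPM (2.34) and its partner Dbf4 at 36.5 against 24.3 (1.498, just under 1.5-fold). Mcm10 and Cdc45, which join the helicase when it starts, had ratios of 2.31 and 2.13. Geminin (Gmnn), which binds Cdt1 and prevents a second licensing, was at 111 against 52.8 CPM (2.11). Gins4 had the lowest ratio of the list, 1.47 (1.21 to 1.78). The M-free choice gave a summed ratio of 1.23, with Mcm2 at 1.48 and Cdc45 at 1.0.

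Of 25 replication fork genes that passed, 24 were at least 1.5-fold higher. Their sum was 2082 CPM (2024 to 2141) in the 300 cells and 1075 in the others, a ratio of 1.94 (1.88 to 2.0). Library 1 had 458 CPM of these genes and library 3 had 669. Pcna, the sliding clamp of the polymerases (chr2:132249162-132253314, minus strand), was at 198 CPM (181 to 217) in the 300 cells, 64.8 in the others, 26.1 in library 1 and 53.3 in library 3. Its ratio within library 2 was 3.06 (2.75 to 3.40). Pcna was seen in 67.3% of the 300 cells and 29.0% of the others, and in 26.7% and 10.4% once every cell was thinned to 2000 UMIs. DNA ligase Lig1 was at 158 against 60.5 CPM (2.62), the checkpoint mediator Clspn at 58.9 against 21.8 (2.70) and Wdhd1, which ties polymerase alpha to the helicase, at 53.8 against 19.6 (2.74). The clamp loader subunit Rfc2 was at 276 against 180 CPM (1.53). The polymerase delta subunit Pold1 alone lay below 1.5, at 25.9 against 18.7 CPM (1.39, 1.04 to 1.82). In the M-free choice the list summed to a ratio of 1.15 (1.11 to 1.2), with Pcna at 1.16, Lig1 at 1.24 and Wdhd1 still past 1.5.

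Enzymes that make and clean the nucleotide pool were more divided. Of 17 that passed, 8 were at least 1.5-fold higher and the rest lay between 1.07 and 1.5. Thymidylate synthase (Tyms) was at 239 against 106 CPM (2.25, 2.04 to 2.46), the ribonucleotide reductase subunit Rrm2 at 101 against 45.5 (2.22) and Dut, which removes dUTP, at 111 against 52.4 (2.11). Purine synthesis gene Atic was at 38.6 against 32.4 CPM (1.19) and the nucleoside diphosphate kinase Nme1 at 229 against 213 (1.07). The list summed to a ratio of 1.52 (1.47 to 1.57), and to 1.05 in the M-free choice, with Tyms at 1.14 and Rrm2 at 0.864.

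DNA repair and checkpoint genes were about as much higher as the fork genes. Of 15 that passed, 13 were at least 1.5-fold higher, with a summed ratio of 1.98 (1.88 to 2.09). The recombination motor Rad54l was at 56.0 against 18.2 CPM (3.08, 2.51 to 3.76) and Brca1 at 25 against 9.22 (2.71). The uracil glycosylase Ung, which clears uracil from new DNA, was at 67.8 against 27.7 CPM (2.45), and the glycosylase Neil3 at 50.9 against 20.3 (2.50). The kinase Atr and the nuclease gene Mre11a had ratios of 1.16 (0.900 to 1.48) and 1.13 (0.761 to 1.62), whose intervals include 1. In the M-free choice the list summed to a ratio of 1.15, with Ung at 1.51, Neil3 at 1.12, Brca1 at 1.1 and Rad54l at 1.03.

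Of 13 genes that assemble and mark new chromatin, 9 were at least 1.5-fold higher. Hells was at 104 CPM (91.7 to 118) against 34.5, a ratio of 3.03 (2.61 to 3.5). The histone chaperone subunit Chaf1b was at 36.0 against 15.9 CPM (2.27), the histone chaperone Asf1b at 136 against 60.7 (2.24) and the methyltransferase Ezh2 at 94.5 against 45 (2.1). Asf1a, the paralog of Asf1b, was at 47.1 against 42.5 CPM (1.11, 0.901 to 1.35). The 2 paralogs thus differed in ratio beyond their counting intervals. In the M-free choice the list summed to a ratio of 1.02, down from 1.75 (1.67 to 1.83), with Hells at 1.21, Chaf1b at 1.05, Asf1b at 1.01 and Ezh2 at 0.977.

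The transcripts of the histone clusters themselves were mostly not higher. As background, these mRNAs mostly lack a poly(A) tail, on which the 3′ kit primes. Of 68 genes in the file, 13 passed, 0 was 1.5-fold higher or lower, and 4 lay above 1, with a median ratio of 0.938. The sum over the list was 780 CPM in the 300 cells and 701 in the others (1.11, 1.06 to 1.17), and without Hist1h2ap it was 467 CPM in both (1.0, 0.939 to 1.06). The M-free choice gave a ratio of 0.765 for the list. It was 1225 CPM in the 300 cells at the other end of the score, which are those with the most mitotic relative to replication UMIs and share no cell with the first. Hist1h2ap was at 313 CPM in the 300 replicating cells, 234 in the others and 539 in the cells with the highest mitotic score.

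Among 21 genes that control the step from G1 to S, 9 were at least 1.5-fold higher. They included the transcription factors E2f1 (97.1 against 46.3 CPM, 2.1) and E2f8 (39.9 against 14.9, 2.68), the ubiquitin ligase subunit Skp2 (72.9 against 33.9, 2.15) and Fbxo5, which inhibits the anaphase-promoting complex (75.5 against 33.6, 2.24). Their ratios in the M-free choice were 1.39, 1.19, 1.04 and 1.02, and the list summed to 1.02 there. The lowest ratios of the list belonged to 2 CDK inhibitors. Cdkn1a was at 268 against 280 CPM (0.956, 0.880 to 1.04) and Cdkn1b at 25 against 26.5 (0.944, 0.709 to 1.24). The inhibitors Cdkn2c and Cdkn2d were at 1.54 (1.26 to 1.86) and 1.19 (0.997 to 1.42), and Cdkn1c, Cdkn2a and Cdkn2b did not pass 10 CPM. Myc, which encodes a growth factor-induced transcription factor, was at 50.9 CPM in the 300 cells, 39.5 in the others, 30.5 in library 1 and 95.9 in library 3. The ratio of Myc within library 2 was 1.29 (1.06 to 1.56).

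Mitosis genes outside the rule were also higher, although the score subtracts mitosis genes. Of 54 that passed, 33 were at least 1.5-fold higher, with a median ratio of 1.58. Their sum was 3226 CPM in the 300 cells and 2128 in the others (1.52, 1.48 to 1.55), beside 370 CPM in library 1 and 397 in library 3. Top2a, the topoisomerase that untangles sister chromatids, was at 330 against 181 CPM (1.82), the proliferation marker Mki67 at 131 against 84.3 (1.56) and Cdk1 at 75 against 41.1 (1.83). The spindle checkpoint kinase Ttk had the highest ratio of the list at 3.35 (2.49 to 4.47), followed by the motor gene Kif15 at 2.69. Pttg1 (securin) and Bub1b had ratios of 0.923 (0.764 to 1.11) and 0.916 (0.582 to 1.38). In the M-free choice, which removes cells with mitosis UMIs from its members alone, the sum was at a ratio of 0.843 (0.814 to 0.873), with Mki67 at 0.725, Top2a at 0.738, Cdk1 at 0.829 and Ttk at 1.1. With such cells removed from both sets it was at 1.68 (1.59 to 1.77), with Mki67 at 1.72 and Top2a at 2.08.

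**Figure D2:**
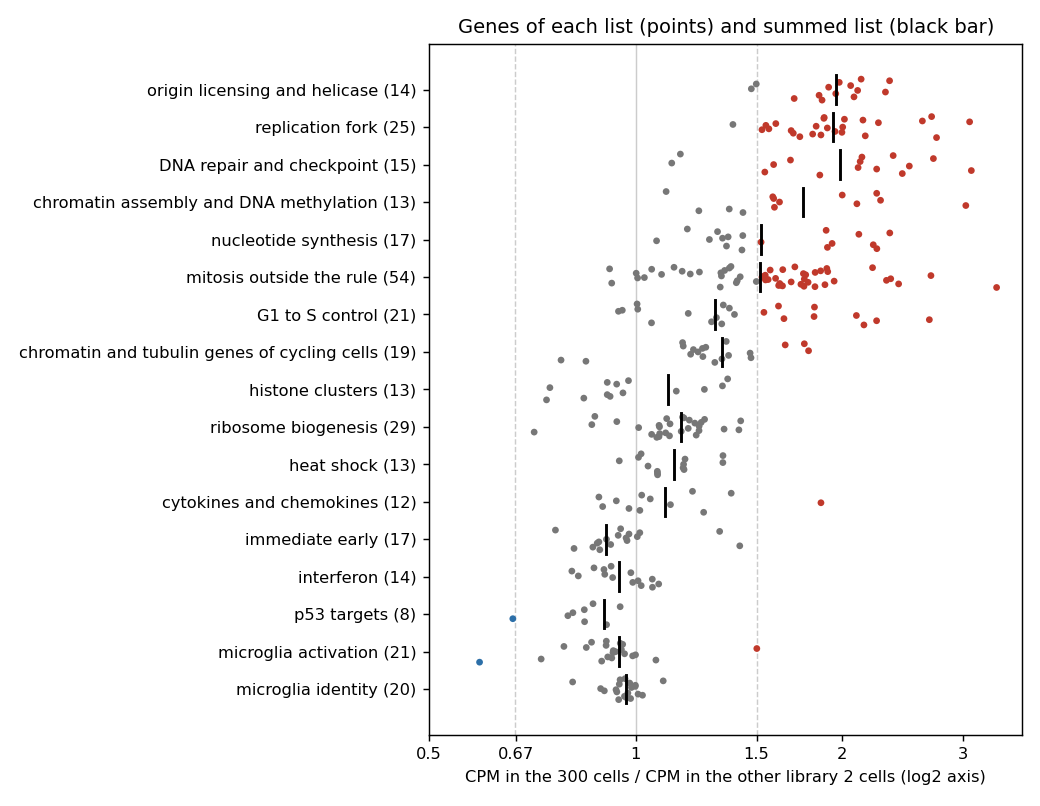
Ratio of CPM in the 300 cells to CPM in the other library 2 cells (log2 axis) for each gene of at least 10 CPM, by gene list. Red points are at least 1.5-fold higher, blue points at least 1.5-fold lower, grey points lie between, and black bars are the ratio of the summed UMIs. Fork genes run from 1.39 to 3.06, histone cluster genes from 0.742 to 1.36 and identity genes from 0.809 to 1.10.

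Against the 300 cells with the highest mitotic score, the replication lists were higher in the replicating cells and the mitosis list was not, with a summed ratio of 2.05 (1.95 to 2.16) for fork genes and 0.902 (0.873 to 0.931) for mitosis genes. The choice of both sets used the 16 rule genes, so this is a description. Over the same 7983 genes, 6.26% were at least 1.5-fold higher and 2.51% at least 1.5-fold lower in the replicating cells than in the mitotic-score cells. The counts were 22 of 25 fork genes, 13 of 14 licensing genes, 12 of 15 repair genes and 3 of 54 mitosis genes higher, the last being Ttk, Mad2l1 and Kif15. On the lower side were 9 of 54 mitosis genes and 8 of 13 histone genes. Wdhd1 was 3.91-fold, Ung 3.89-fold and Pcna 3.38-fold higher than in the mitotic-score cells. Top2a (1.07, 0.960 to 1.18) and Mki67 (0.931, 0.792 to 1.09) had intervals that include 1. Hist1h2ap was at a ratio of 0.581 (0.529 to 0.637).

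Among genes of chromatin and the cytoskeleton that are abundant in cycling cells, 3 of 19 were at least 1.5-fold higher, namely the chromatin proteins Hmgb2 (1.79), Cbx5 (1.76) and Dek (1.65). Hmgb2 was at 0.902 and Cbx5 at 0.884 in the M-free choice. Stmn1, which destabilizes microtubules, was at 869 CPM (832 to 907) in the 300 cells, 590 in the others, 38.7 in library 1 and 72.6 in library 3, with a ratio of 1.47 within library 2 and 0.981 in the M-free choice. The tubulin genes Tuba1c and Tubb4b were at ratios of 0.779 and 0.846.

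Genes with no place in the lists were named by their rank among those of at least 50 CPM. The 10 with the highest ratio were Tcf19 (2.51, 111 against 44.3 CPM), 2810417H13Rik (2.24, 271 against 121 CPM), Hat1 (2.0), Nap1l1 (1.78), Smc6, Whsc1, Nrm, Dtymk, Hirip3 and Dnajc9 (1.67). Hat1 acetylates new histone H4, Nap1l1 and Dnajc9 act as histone chaperones, Dtymk makes dTDP, and Smc6 belongs to a complex that resolves replicating chromosomes. Lowest of the 10 at the other end was Hcst (0.661, 35.2 against 53.2 CPM), the adaptor of an activating immune receptor. The others were A830008E24Rik (0.673), Matk (0.716), the lectin Clec4a3 (0.721), the integrin-associated protein Cd47 (0.728, 86.5 against 119 CPM) and Pigk (0.730). Dennd1c, Ccng2, Trim12a and Mxd4 were at 0.737 each. Cyclin G2 (Ccng2) is linked to cell cycle arrest, and Mxd4 is a partner of Max that opposes Myc. Over the settings tried, Pigk, Ccng2 and Mxd4 reached ratios of 1.10, 1.02 and 1.005, and the rest of the 10 stayed below 1. In the M-free choice Tcf19 was at 1.27, Hat1 at 1.24, 2810417H13Rik at 0.971, Whsc1 at 0.994 and Dnajc9 at 0.915. Among genes of at least 50 CPM, Hcst alone was past 1.5-fold on the low side.

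Few activation genes passed 1.5-fold, and their counts are too small to set apart from the 4.12% higher and 1.34% lower among all genes. Of 21 activation genes that passed, 1 was at least 1.5-fold higher, Csf1 (16.5 against 11 CPM, 1.5, 1.04 to 2.11), and 1 lower, Spp1 (15.3 against 25.8 CPM, 0.592, 0.411 to 0.830). These rest on 39 and 36 UMIs, and when both sets were limited to cells without a UMI of a subtracted gene Spp1 was at 1.13. Of 12 cytokine and chemokine genes that passed, Cxcl10 was at least 1.5-fold higher (22.0 against 11.8 CPM, 1.86). Of its 52 UMIs in the 300 cells, 20 came from 1 cell, and without that cell Cxcl10 would not reach 1.5-fold. Csf1 was at 0.997 and Cxcl10 at 0.981 in the M-free choice. Ccl12 was at 1220 against 1009 CPM (1.21, 1.16 to 1.26) and Ccl2 at 103 against 74.5 (1.38). No immediate early, interferon, heat shock, glycolysis or ribosomal protein gene passed 1.5-fold in either direction, with summed ratios from 0.905 for immediate early genes to 1.14 for heat shock genes. Ribosome biogenesis genes had 0 of 29 past it and a summed ratio of 1.16 (1.13 to 1.19). Of 15 p53 target genes, 8 passed 10 CPM, and these 8 lay below 1, from Phlda3 (0.662, from 18 UMIs in the 300 cells) to Bax (0.949, 0.877 to 1.03). Their median ratio was 0.842, beside 1.01 over all genes. Over the settings tried, the summed ratio of the list ran from 0.881 to 0.997 and the ratio of Phlda3 from 0.559 to 1.18.

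**Figure D3:**
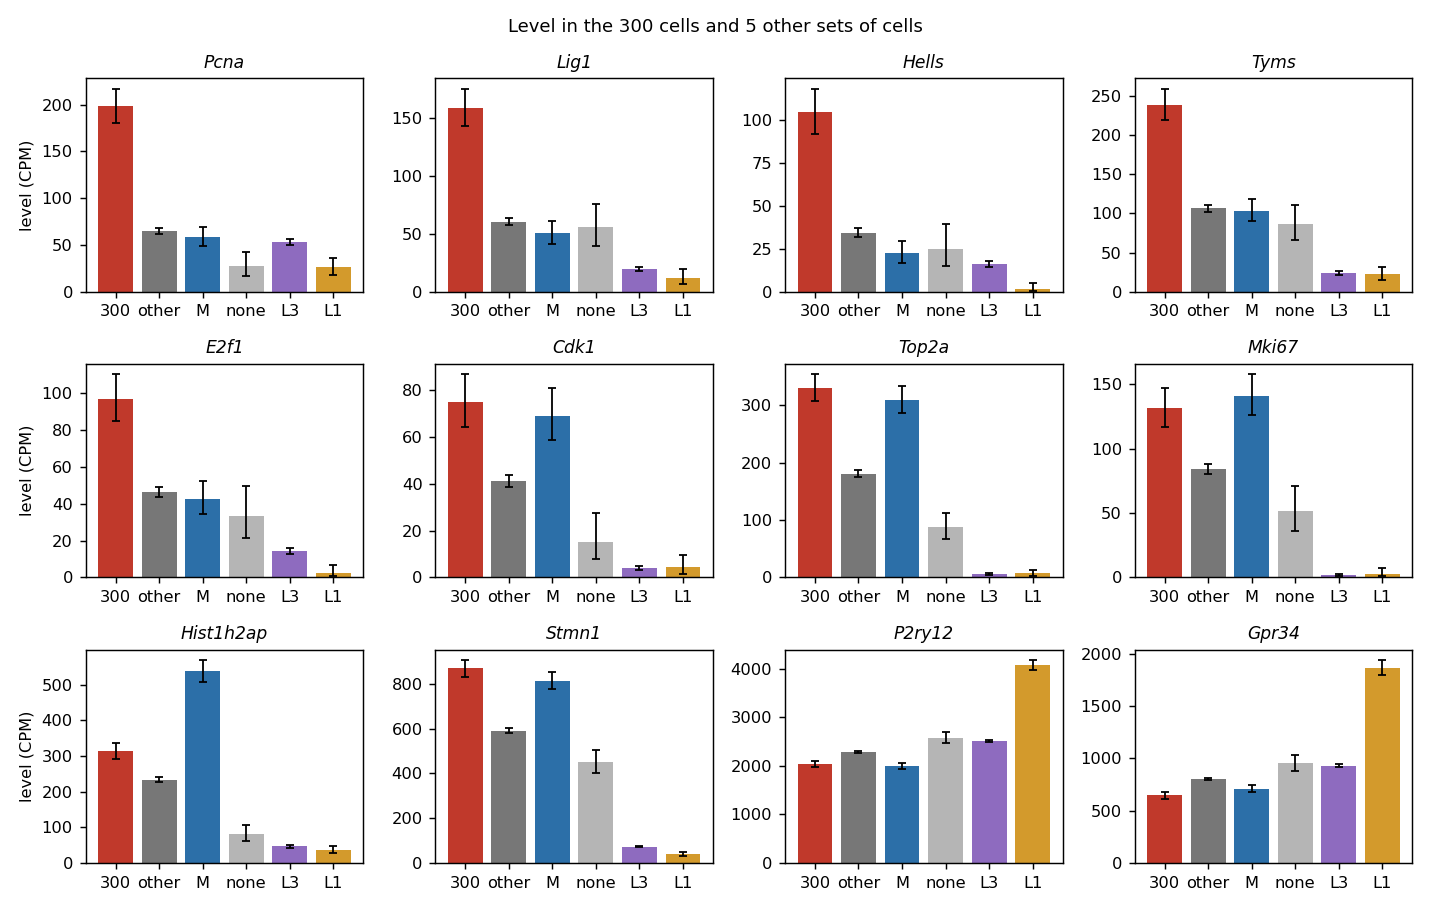
Level (CPM, linear axis from 0) of 12 genes in the 300 cells, the other library 2 cells, the mitotic-score cells (M), the library 2 cells without a UMI of any rule gene (none) and all cells of libraries 3 and 1. Bars are summed UMIs per 1000000 and lines are exact Poisson 95% intervals. Pcna, Lig1, Hells, Tyms and E2f1 are highest in the 300 cells, Hist1h2ap is highest in the mitotic-score cells at 539 CPM, and the identity gene Gpr34 is at 649 CPM in the 300 cells and 1871 CPM in library 1.

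The levels were followed along the whole score by ranking the 3569 cells and dividing them into 12 bins of 297 or 298 cells, the first of which holds 298 of the 300 cells. Fork genes were at 2083 CPM (2025 to 2142) in the first bin, 1521 in the second, 983 in the sixth, 877 in the tenth and 1018 in the last. Mitosis genes were at 3226 CPM in the first bin, 1674 in the tenth and 3595 in the last, so that both ends of the score held more of them than the middle. Histone cluster genes were at 779 CPM in the first bin and 1232 in the last. Identity genes were at 37865 CPM in the first bin, 40135 in the sixth and 37718 in the last.

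**Figure D4:**
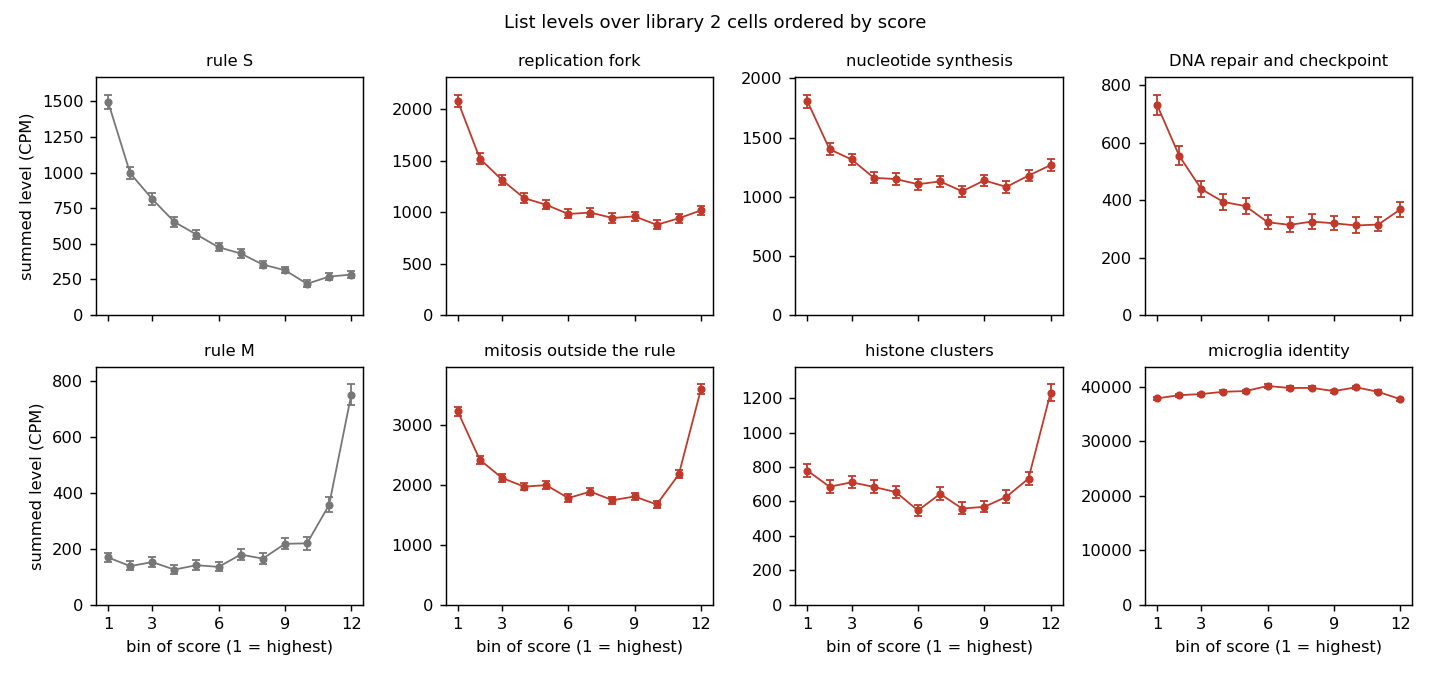
Summed level (CPM) of 8 gene lists in 12 bins of library 2 cells ordered by score, with the highest scores in bin 1 at the left. Points are bins of 297 or 298 cells and lines are exact Poisson 95% intervals. Fork genes go from 2083 CPM in bin 1 to 1521 in bin 2, whereas mitosis genes are high at both ends.

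The 300 cells differed from the cells ranked just behind them by less than from the library at large. Against the next 300 cells, whose median was 6511.5 UMIs, fork genes had a ratio of 1.37 (1.31 to 1.44). Against the 160 library 2 cells without a UMI of any rule gene, fork genes had a ratio of 2.49 and mitosis genes of 2.25. Those 160 cells had a median of 4434 UMIs, so that depth moved with this difference and its part was not tested.

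Cells were also compared one by one, each thinned to 2000 UMIs. Licensing and fork genes together gave a median of 5 UMIs per cell in the 300 cells (5th to 95th percentile 1 to 11), 3 in the next 300 cells, 2 in all the other library 2 cells and 1 in libraries 1 and 3. More than 5 such UMIs, the 95th percentile of the 160 cells without rule UMIs, were found in 133 of the 300 cells (44.3%, Clopper-Pearson 95% interval 38.6 to 50.2%), in 276 of 3269 others (8.44%) and in 2 of the 160 (1.25%). The remaining 167 of the 300 cells held 5 or fewer, as did 158 of the 160. The median of mitosis UMIs per cell was 5 in the 300 cells, 4 in the mitotic-score cells and 3 in the others. Identity genes gave medians of 76 and 79 UMIs per cell in the 300 and the others, with at least 52 in every one of the 300.

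**Figure D5:**
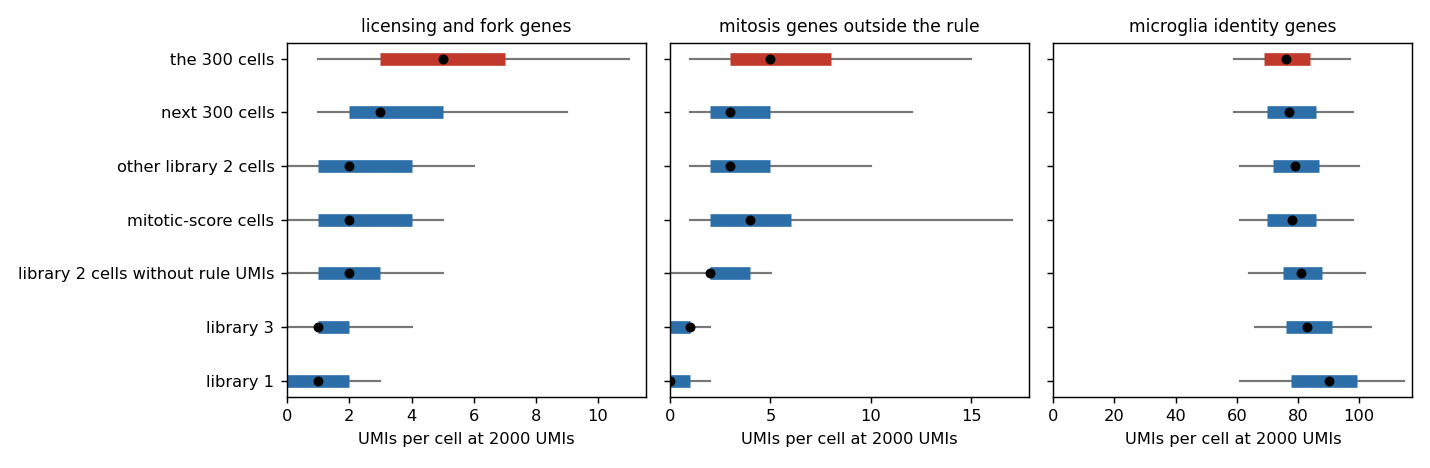
UMIs per cell in cells thinned to 2000 UMIs for licensing and fork genes, mitosis genes outside the rule and identity genes, in 7 sets of cells. Dots are medians, thick bars the quartiles and thin lines the 5th to 95th percentiles. The 300 cells have a median of 5 licensing and fork UMIs, with a line from 1 to 11 that overlaps those of all other sets.

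The 300 cells were divided by the detection of genes that had chosen them, which makes the following a description. A cyclin E transcript (Ccne1 or Ccne2) was seen in 232 of them and in none of the remaining 68, whose medians were 8204 and 5812.5 UMIs. The 232 cells had more fork transcripts (2181 against 1597 CPM, 1.37, 1.26 to 1.49) and more mitosis transcripts (3507 against 1856 CPM, 1.89, 1.75 to 2.04). Mki67 was at 146 against 62.4 CPM (2.33, 1.55 to 3.67) and Hist1h2ap at 351 against 127 CPM (2.76, 2.07 to 3.74). The 201 cells with a UMI of a subtracted gene, whose median was 8371 UMIs against 6127 in the 99 without one, had ratios of 1.24 (1.16 to 1.33) for fork genes and 1.41 (1.33 to 1.49) for mitosis genes. Seeing a transcript is more likely in a deeper cell, and the part of depth in these differences was not tested.

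The same score limit was reached by 62 of 3284 cells of library 3 and 6 of 408 of library 1. The 62 cells had fork genes at 1342 CPM against 655 in the other library 3 cells (2.05, 1.87 to 2.23), licensing genes at a ratio of 2.37 and mitosis genes at 833 against 388 CPM (2.15, 1.92 to 2.40). The mitosis level of these 62 cells was thus below the 2128 CPM of library 2 cells outside the 300. Identity genes were at a ratio of 0.97. Tcf19 was at a ratio of 6.25 from 11 UMIs, and Rrm2 at 20.0 from 9 UMIs (8.10 to 45.2), 4 of them from 1 cell. Without that cell Rrm2 was at a ratio of 11.4 (3.36 to 30.8) from 5 UMIs. Without the cell richest in mitosis UMIs, the mitosis ratio of the 62 was 1.93. In the 6 cells of library 1, fork genes were at a ratio of 3.06 (1.92 to 4.65) from 23 UMIs, and mitosis genes were at 2869 against 351 CPM (8.18, 5.90 to 11.1) from 47 UMIs. One cell held 44 of those 47 UMIs and 14 of the 23, and without it the ratios were 0.713 (0.146 to 2.1) for mitosis genes and 1.64 (0.744 to 3.13) for fork genes. Levels in different libraries are separate libraries as well as separate groups, which cannot be told apart, and 2 of the 300 cells share a barcode with a cell of another library.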

How the data were processed

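Single-cell 3′ libraries of sorted YFP (+) lumbar cord cells were made with a 10x Genomics kit (v3.1 per the labels). The authors deposited 1 matrix of UMI counts (whole numbers, not normalized) for 27998 genes and 7522 cells. Cell Ranger 2.1.1 and mm10 are named in the submitters' processing notes, without their roles. Which library suffix belongs to which group was not given in the sources used here.

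Library 2 held 3591 cells (24097543 UMIs), of which 3569 had at least 2000 UMIs. Counts were summed over cells and scaled to 1000000 (CPM), with exact 95% intervals in Python 3.11.15 (numpy 2.4.6, scipy 1.17.1, pandas 2.3.3). Ratios were taken for genes of at least 10 CPM and read at 1.5-fold. The script was tested on simulated data. Doublets were removed only by the sort gate of the study, and no doublet caller was run. Gene positions are from GENCODE M21 (27645 identifiers matched) and promoters from RefSeq.

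The members, the gene lists, the promoter words and the alternatives were chosen with earlier results of these data known. Named genes are the 16 rule genes. From each list they are the 4 highest and 2 lowest ratios and the gene of highest level. Cdkn2c and Cdkn2d are given beyond this rule, without values under the other settings. Outside the lists they are the 10 highest and 10 lowest ratios at 50 CPM or more. Mki67, Top2a, Pcna, Mcm2, Myc, Cdk1, Tnfaip3 and Stmn1 were kept in any case, and Tnfaip3, an inhibitor of NF-κB, was at a ratio of 1.07 (0.617 to 1.75). Tmem119 and the genes of the closing section that no list holds were named after their values were seen. Marker sums not given in the report were, in the 300 cells and the others, 0.848 and 1.57 CPM for neurons, 15.3 and 15.0 CPM for endothelial cells (Pecam1 first) and 2.54 and 5.44 CPM for red blood cells. The summed ratio was 0.947 for interferon genes, 1.06 for glycolysis, 1.14 for sterol synthesis, 0.987 for ribosomal proteins and 0.987 for mitochondrially encoded genes.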

Additional observations from a re-analysis of the deposited data

How the results depend on the processing

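No paired analysis was possible because each group is a single library. The count of genes at least 1.5-fold higher in the 300 cells, 329, was 49 at a minimum of 50 CPM, 1889 with no filter, 78 at 2-fold, 199 for the 600 cells of highest score, 612 with cells thinned to 2000 UMIs before CPM, 508 with thinning before the score, 1101 against cells without rule UMIs, 45 for a score among cells without a subtracted UMI, and 543 between members and others without one (a comparison added after seeing the data, as were those without shared barcodes). The count lower, 107, was under the same settings 1, 823, 12, 26, 577, 509, 439, 101 and 524, and was 257 for 150 cells. The fork ratio of 1.94 was 1.77 for 600 cells, 2.03 for added genes alone, 1.15 among cells without a subtracted UMI, 1.54 with thinning before the score, 1.77 with the others weighted to the depth of the 300, and 2.49 against cells without rule UMIs. The mitosis ratio of 1.52 was 1.35, 1.75, 0.843, 1.44, 1.34 and 2.25 in the same order, and 1.65 with thinning before CPM, 1.63 as a mean over cells, 1.64 without the 300 mitotic-score cells, 1.57 without the 2% of cells richest in UMIs and 1.68 between cells without a subtracted UMI. The identity ratio of 0.97 was 0.957 for added genes alone, 1.01 among cells without a subtracted UMI, 0.985 with depth weighting, 0.933 against cells without rule UMIs and 0.977 between cells without a subtracted UMI. Among cells without a subtracted UMI, of the ratios at least 1.5-fold from 1 with an interval that leaves out 1, those that crossed 1 were, beside the mitosis sum, 2810417H13Rik (0.971), Cbx5 (0.884), Cdk1 (0.829), Csf1 (0.997), Cxcl10 (0.981), Dnajc9 (0.915), Ezh2 (0.977), Hmgb2 (0.902), Mki67 (0.725), Rrm2 (0.864), Top2a (0.738), Whsc1 (0.994), Gzma (8.29) and the T and NK cell markers (8.64). A further 53 named genes and 8 list sums that lay nearer 1 also crossed it, among them Stmn1 (0.981) and the histone clusters (0.765). For 600 cells Gzma was at 3.81 and these markers at 3.92. With added genes alone Ccnb2 was at 1.18, with thinning before the score Csf1 was at 0.545, and between cells without a subtracted UMI Spp1 was at 1.13. The T and NK cell values include 1 cell rich in these markers, described with the other observations. Of these shifted values, only Gzma for the 600 cells was also taken without that cell. The cause of the other shifts was not tested. The choice among cells without a subtracted UMI keeps cells that carry one in its comparison set. The part of this construction in its shifts was not tested either. Of 49 named genes outside the rule that were at least 1.5-fold higher with an interval that leaves out 1, 37 stayed above 1 under every alternative and 3 (Mcm10, Ung and Wdhd1) stayed at least 1.5-fold higher. The share of cells with a UMI was higher in the 300 for 160 of 190 named genes, and for 121 once cells were thinned. These named genes include the rule genes and the highest ratios of each list, so both counts are largely set by the naming and are a description.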

Other observations

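Centromere genes were looked at after Ttk and Cenpa had been seen to differ, so the set was chosen on these values. Of the 17 genes named Cenp in the file outside the rule, 12 passed 10 CPM. In the 300 cells 7 of these were at least 1.5-fold higher, beside 4.12% among all genes. The summed ratio of the set was 1.71 (1.61 to 1.83). The higher ones were Cenpk (2.90), Cenpu (2.65), Cenph (2.49), Cenpq (2.13), Cenpm (2.12), Cenpw (2.07) and Cenpb (1.63). Those under 1.5-fold were Cenpl (1.46), Cenpe (1.33), Cenpo (1.31), Cenpt (1.21) and Cenpf (1.0). Subunits of the constitutive centromere network lay in both groups. Cenpk, Cenpu, Cenph, Cenpq, Cenpm and Cenpw were in the first, and Cenpl, Cenpo and Cenpt in the second. The 14 cohesin and Smc5/6 genes were also chosen after values were seen. Their summed ratio was 1.28 (1.22 to 1.33), and 5 were at least 1.5-fold higher, beside 4.12% among all genes. These were Esco2 (2.05), the acetyltransferase that locks cohesin during S phase, Cdca5 (1.90), Smc6 (1.76), Smc5 (1.61) and Pds5b (1.59). The other 9 lay between the limits. Smc1a was at 1.35, Smc3 at 1.32, Pds5a at 1.29, Stag1 at 1.11, Rad21 at 1.07 and Stag2 at 1.05. The release factor Wapl was at 0.93, the loader Nipbl at 0.91 and Esco1 at 0.86.

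The cell at rank 308 by score, just outside the 300, carried 122 UMIs of T and NK cell markers, of which 78 were Gzma, a granzyme of cytotoxic lymphocytes. No other library 2 cell of at least 2000 UMIs had more than 2 such UMIs. The cell also had 22 UMIs of the identity gene Tmem119 among 9122 in all, against a median of 25 per cell in the 300. It carried 0 UMIs of the subtracted genes. In the 600 cells of highest score Gzma was at a ratio of 3.81 with this cell and 0.954 (0.599 to 1.47) without it. In the 300 cells, 18 cells held 19 UMIs of these markers, at most 2 in a cell.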
